A study of Bos taurus with 9 samples.

Results

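The antioxidant and redox genes examined here are 40 genes for the enzymes that remove superoxide and peroxides, the proteins that keep those enzymes reduced, and the NRF2 regulators of such genes. They were chosen by gene symbol from the 21512 genes of the table, each of the 40 symbols was found there once, and all 40 are also symbols of the RefSeq annotation. Of the 40, 38 had a median above 0.1 TPM (transcripts per 1000000) over the 9 embryos and were tested among 14599 genes. *SOD3* and *SLC7A11* did not pass and were not tested.

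The study removed *TEAD4*, a transcription factor known for its part in trophectoderm formation in the mouse, from bovine embryos and examined whole blastocysts on day 8 (D8). WT embryos came from oocytes injected before fertilisation with Cas9 mRNA alone (n = 5), and KO embryos came from oocytes that also received a guide RNA against *TEAD4* and carried only alleles that disrupt its reading frame (n = 4, *TEAD4*-/-). All were produced in vitro from slaughterhouse oocytes fertilised with sperm of a single bull and cultured in synthetic oviduct fluid under 5% O2, 5% CO2 and 90% N2, a low-oxygen atmosphere. Each blastocyst gave 1 library, so a value belongs to 1 embryo that holds inner cell mass and trophectoderm together. Values of WT embryos 1 to 5 and of KO embryos 1 to 4 are given in that order, and the numbers only name embryos.

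Superoxide made by mitochondria and oxidases is turned into hydrogen peroxide by superoxide dismutases, and the peroxide is then reduced by catalase, glutathione peroxidases and peroxiredoxins. Glutathione peroxidases draw electrons from glutathione and most peroxiredoxins from thioredoxin, and both carriers are recycled by reductases that use NADPH. The transcription factor NRF2, encoded by *NFE2L2* and held low by *KEAP1*, switches on many of these genes under oxidative stress, to which in vitro produced embryos are known to be sensitive.

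*TEAD4* transcripts stood at 18.0, 52.5, 54.3, 36.5 and 43.4 TPM in the WT embryos and 42.8, 41.8, 12.5 and 22.2 TPM in the KO embryos. The groups overlapped, with KO embryos 1, 2 and 4 inside the WT range and KO embryo 3 below it (log2 fold change −0.51, SE 0.416, adjusted p = 0.947). That fold change was −0.16 without KO embryo 3 and −0.77 without WT embryo 1. The edits disrupt the reading frame and need not remove the transcript, so this level does not check the genotype. Libraries differed in other ways as well. Genes above 0 TPM numbered 14776 to 15375 in the KO embryos, 14807 in WT embryo 1 and 15933 to 16678 in the other WT embryos. The part of this difference in the results was not tested. TPM keeps no read number, and the methods of the study give reads per sample only as a range, so the depth of each column is unknown.

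Markers of both blastocyst lineages were present in every embryo. The 8 trophectoderm markers, of which *KRT8* held 64.7% of the sum, summed to 18005, 14015, 7654, 4078 and 14092 TPM in the WT embryos and 9331, 12419.6, 6985 and 6604 TPM in the KO embryos, and 5 of the 8 had a lower mean log2(TPM + 1) in KO (3 without KO embryo 4). *TFAP2A*, the 1 of the 8 with an unadjusted p under 0.05 (12.5%, against 3.83% of all genes lower), stood at 2.85 to 12.6 TPM in WT and 0.321 to 5.21 TPM in KO (log2 fold change −1.34, SE 0.504, adjusted p = 0.745), and was not under it without KO embryo 4 or WT embryo 2. The 5 inner cell mass and epiblast markers summed to 784, 1001, 1593, 2163 and 1248 TPM in the WT embryos and 1557, 2222, 1365 and 2071 TPM in the KO embryos. *POU5F1* held 90.8% of that sum and had a higher mean in KO, as did *KLF17*, whereas *SOX2*, *NANOG* and *PRDM14* had a lower one, and the 3 lower became 1 without KO embryo 3. The paper states that POU5F1 and CDX2 do not exclude each other in bovine blastocysts, so that sum does not measure the inner cell mass alone. By staining, the paper found slightly fewer SOX2-positive cells in KO than in WT blastocysts. Among WT embryos, embryo 4 had the lowest trophectoderm sum and the highest inner cell mass sum and embryo 1 the reverse, and both lists overlapped between genotypes. WT embryos 3 and 4 had the highest *SOX2* levels, at 68.2 and 90.4 TPM, whereas WT embryo 1 and KO embryo 3 had the lowest, at 3.89 and 2.26 TPM. The 4 hypoblast markers, led by *GATA6*, summed to 81.6 to 145 TPM in WT and 43.6 to 151 TPM in KO, and all 4 had a lower mean in KO, with *GATA4* (1 of 4, against 1.23% of all genes) below every WT embryo in every KO embryo. Markers of cells that could be carried over with the embryo were mostly low. Among the 9 cumulus and granulosa markers *FSHR* was the most abundant, at 1.36 TPM in KO embryo 4 and between 12.1 and 26.8 TPM elsewhere. *CYP19A1* was above 0 in every embryo, at 0.319 to 1.57 TPM in WT and 0.503 to 3.05 TPM in KO. *FOXL2* spanned 0.250 to 0.784 TPM in WT and 0 to 1.503 TPM in KO. *TNFAIP6* spanned 0 to 2.08 TPM in WT and 0 to 0.290 TPM in KO, and *AMH* 0 to 0.133 TPM and 0.0289 to 2.27 TPM. *INHA*, *INHBA*, *HAS2* and *PTX3* reached at most 0.520 TPM. *HBB* was listed at 0 in every embryo, although *HBA*, the most abundant of the 3 blood markers, stood at 54.1 to 172 TPM in WT and 62.0 to 314 TPM in KO. The 7 oocyte markers, led by *ZP3*, summed to 7.97 to 18.7 TPM in WT and 3.42 to 11.4 TPM in KO. The part of cell composition in the results on antioxidant genes was not tested, and in whole embryos fewer cells of a type and less RNA per cell cannot be told apart.

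Antioxidant transcripts were abundant in D8 blastocysts of both genotypes. The 40 members together made up 1.48% of the TPM in WT on average and 1.34% in KO, with sums of 14218, 13325, 14633, 17419.8 and 14559 TPM in the WT embryos and 14556, 12863, 14004 and 12071 TPM in the KO embryos. *TXN*, *PRDX2* and *PRDX1* led and were the 3 members among the 100 genes with the highest WT mean. These 3 held 57.1% of the members' sum in WT. Of the 40, 36 were above 0 in every embryo, 27 above 10 TPM and 14 above 100 TPM. At the low end *SOD3*, the secreted superoxide dismutase, was listed at 0 in 8 embryos and at 0.176 TPM in WT embryo 4, and *SLC7A11*, the cystine importer, at 0 in 6.

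**Figure D1:**
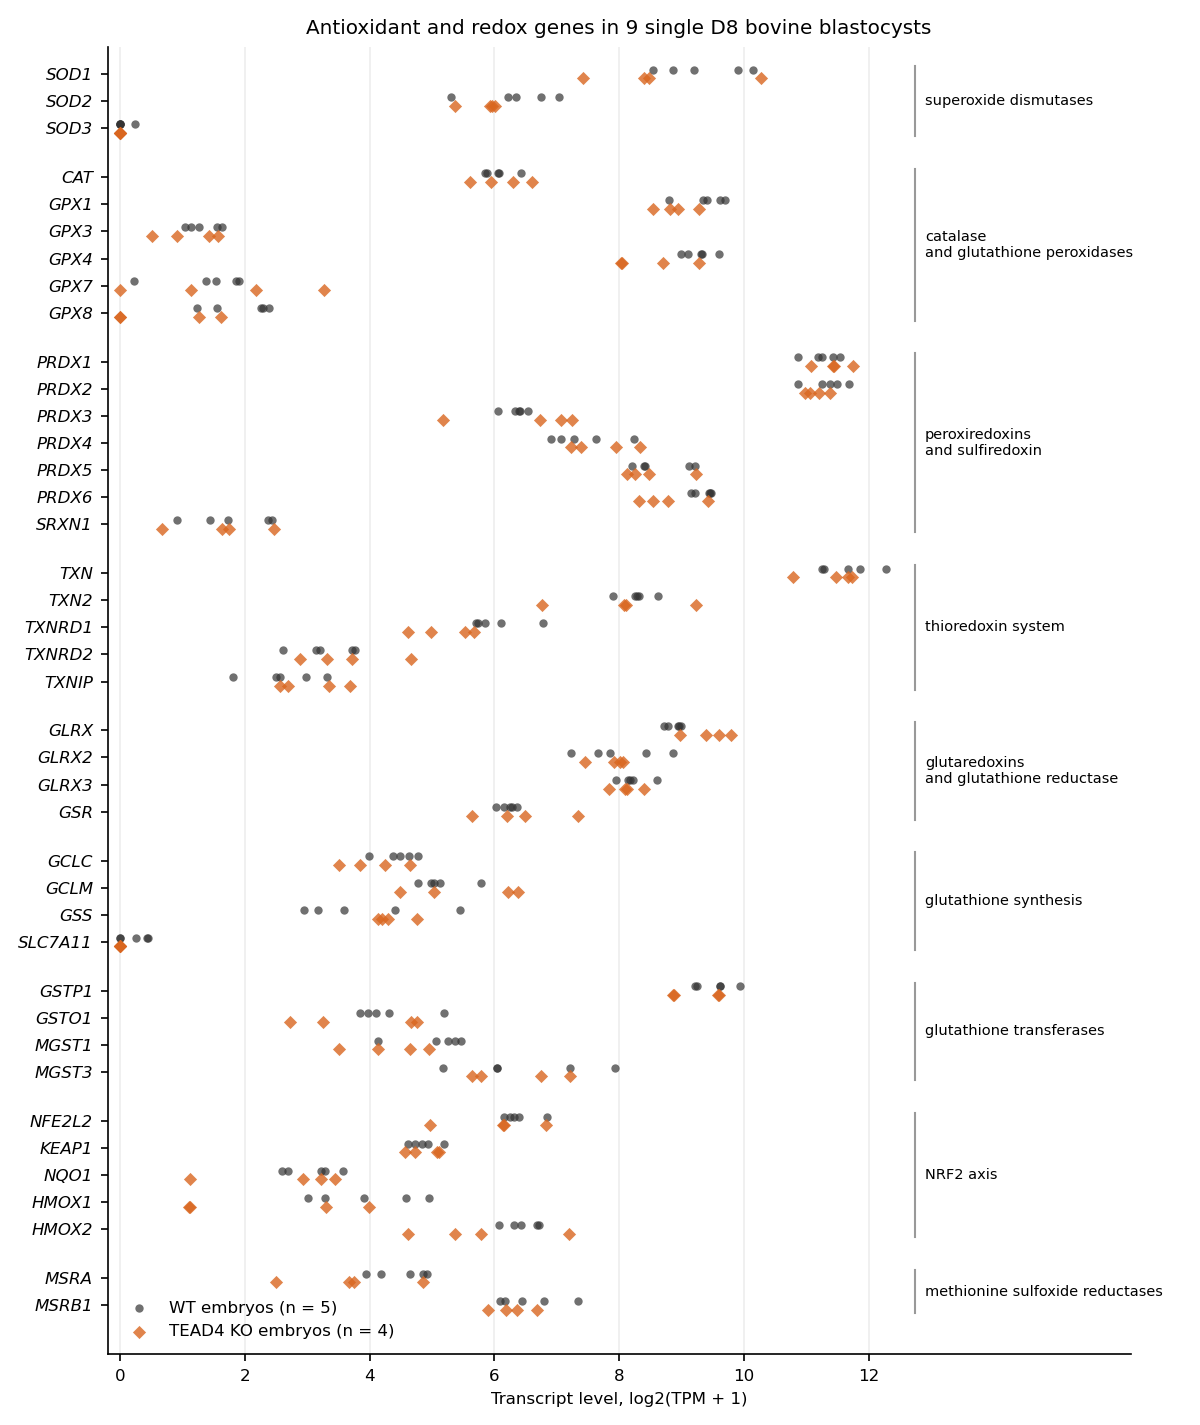
Transcript levels of the 40 members as log2(TPM + 1) on the horizontal axis, by family, with circles for 5 WT and diamonds for 4 KO embryos. *TXN*, *PRDX1* and *PRDX2* lie farthest to the right, *SOD3* and *SLC7A11* lie at or near 0, and the 2 genotypes overlap for every tested member except *TXNRD1*.

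Between the genotypes no member passed the test. With limma on log2(TPM + 1) and Benjamini-Hochberg adjustment over all 14599 genes, 0 of the 38 tested members had an adjusted p under 0.05, beside 3 genes or 0.0205% of all genes, and the smallest adjusted p of a member was 0.671. At an unadjusted p under 0.05, 5 members (13.2%) had a lower mean in KO, against 3.83% of all genes, and 1 (2.63%) a higher mean, against 2.07%. The lower members were *GPX4*, *GPX8*, *PRDX6*, *TXNRD1* and *HMOX1*, and the higher one was *GLRX*. Every KO embryo lay below every WT embryo for 1 member, *TXNRD1* (2.63%, against 1.23% of all genes), and above for 0 (against 0.801%). A higher mean in KO was seen for 12 members (31.6%, against 44.2% of all genes) and a lower one for 26 (68.4%, against 55.8%). Exact permutation tests of the 6 members named above, two-sided and unadjusted, gave p = 0.0476 for *GPX4*, 0.0794 for *GPX8*, 0.0476 for *PRDX6*, 0.0159 for *TXNRD1*, 0.143 for *HMOX1* and 0.0317 for *GLRX*. The 6 had been picked by their limma p in the same embryos, so these values are not separate evidence. The median log2 fold change was −0.23 over the 38 members and −0.046 over all genes.

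These counts depended on single embryos. Without KO embryo 3, 10 members had an unadjusted p under 0.05 and 8 did not overlap between genotypes, and all 6 members named above were among the 10. Of the 10, 8 were lower and 2 higher in KO, against 4.99% and 2.35% of all genes without that embryo, and of the 8, 6 were below and 2 above WT, against 3.26% and 1.78%. Without KO embryo 4 the count at an unadjusted p under 0.05 was 3 (*GPX8*, *TXNRD1* and *GLRX*), of which 2 were lower and 1 higher in KO, against 3.73% and 2.36% of all genes, and the median was −0.084 over the members and −0.061 over all genes. Members that did not overlap numbered 3 without WT embryo 1, all below WT (against 2.20% of all genes), 2 without WT embryo 2, both below (against 1.82%), and 2 without WT embryo 3, 1 below and 1 above (against 1.76% and 1.61%). Median-of-ratios scaling also gave 3 members at an unadjusted p under 0.05, the same 3 as without KO embryo 4, with 2 lower and 1 higher against 3.58% and 2.95% of all genes. *GPX8* alone of the 6 had an unadjusted p under 0.05 under all 17 alternatives. *TXNRD1* did not without KO embryo 1 and with array weights, which weight each library by its scatter, *GLRX* without KO embryo 2, *GPX4* without KO embryo 2 or 4 and with median-of-ratios scaling. *PRDX6* did not without KO embryo 1 or 4 or WT embryo 1, 2 or 5 and with median-of-ratios scaling, and *HMOX1* without KO embryo 2 or 4 or WT embryo 4 or 5 and with median-of-ratios or quantile scaling. KO embryo 4 alone held the lowest of the 9 values for 12 of the 38 members, beside *GPX8* at 0 in KO embryos 3 and 4. Its median deviation from the WT mean was −0.40 in log2(TPM + 1), against −0.24 to 0.075 in the other 8 embryos.

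**Figure D2:**
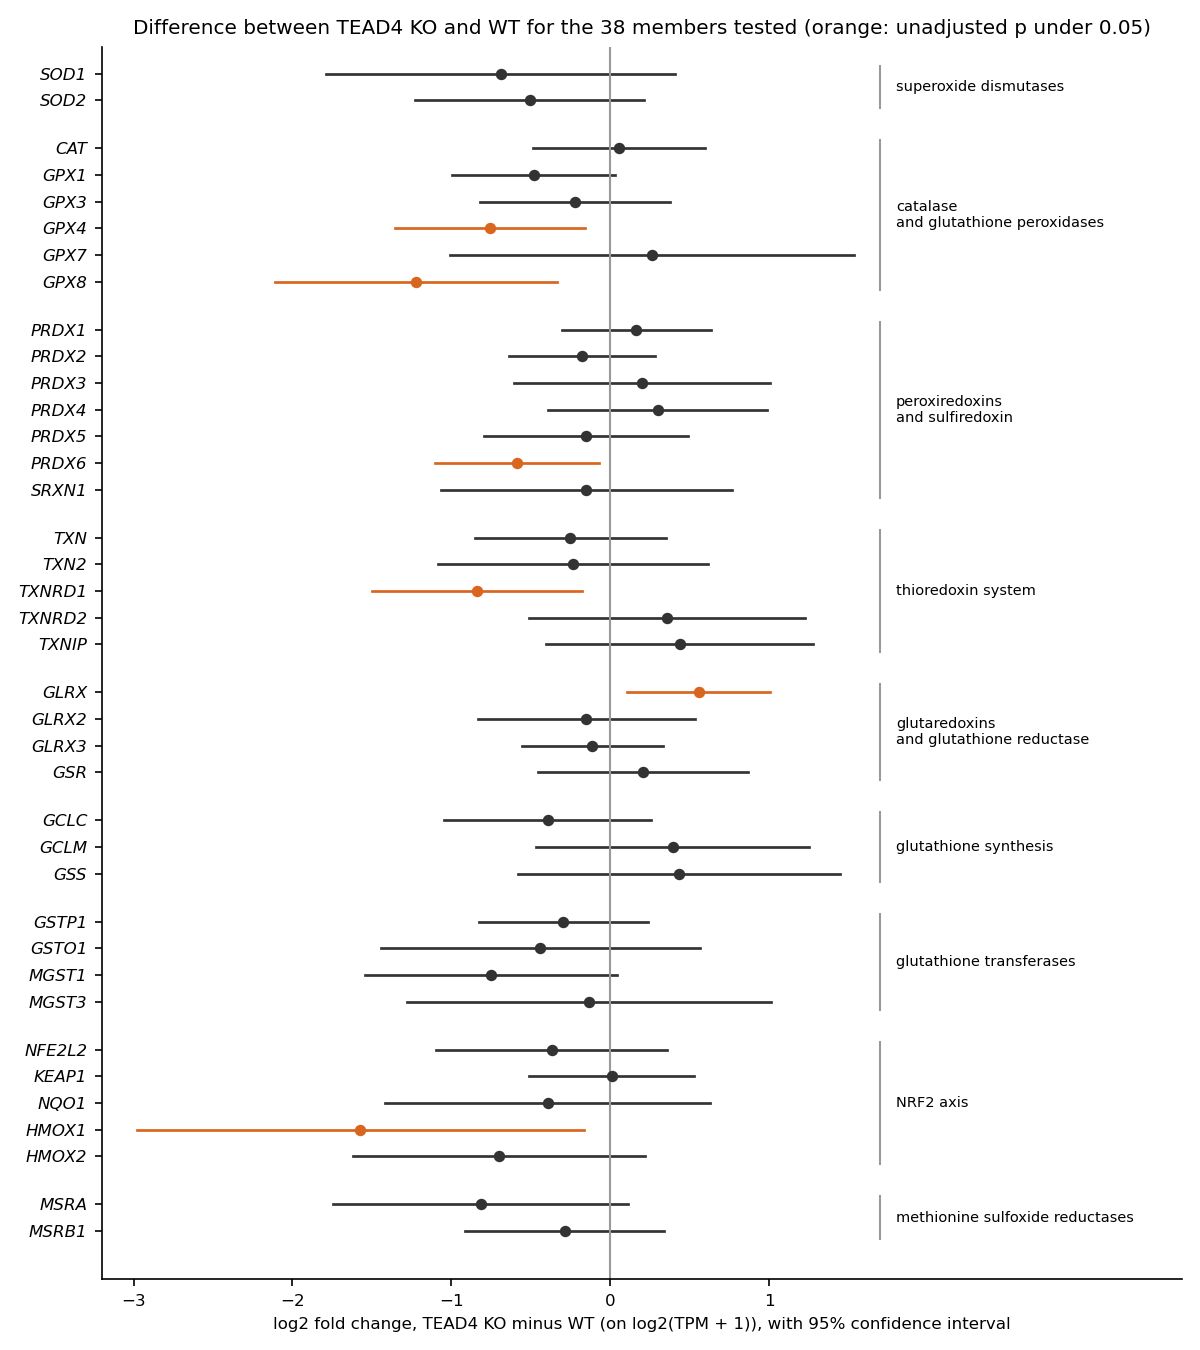
Log2 fold change of KO against WT on the log2(TPM + 1) scale (horizontal axis) for the 38 members tested, with 95% confidence intervals from limma that are not adjusted for the number of genes. The 6 members in orange had an unadjusted p under 0.05, 5 of them to the left of 0, and the intervals of the other 32 include 0.

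Both tested superoxide dismutases had a lower mean in KO and overlapped between genotypes. *SOD1*, the cytosolic copper and zinc enzyme, stood at 588, 373, 955, 1128 and 467 TPM in the WT embryos and 358, 335, 1232 and 171 TPM in the KO embryos. WT embryos 3 and 4 and KO embryo 3 formed the high end, and the other 3 KO embryos lay below all WT embryos (log2 fold change −0.69, SE 0.504, adjusted p = 0.934). Without KO embryo 3, *SOD1* was 1 of the 8 members that did not overlap and its log2 fold change was −1.23, and it was −0.28 without KO embryo 4 and −0.39 with array weights. *SOD2*, the mitochondrial manganese enzyme, stood at 38.4, 80.3, 106, 129.6 and 73.7 TPM in the WT embryos and 63.6, 60.1, 40.3 and 61.6 TPM in the KO embryos. Its KO values all fell inside the WT range, whose ends were WT embryos 1 and 4 (log2 fold change −0.51, SE 0.330, adjusted p = 0.917), and leaving out either of these gave log2 fold changes of −0.76 and −0.33. Without WT embryo 1, *SOD2* had an unadjusted limma p under 0.05 and did not overlap between genotypes.

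In the family of catalase and glutathione peroxidases, 4 of 6 members (66.7%, against 55.8% of all genes) had a lower mean in KO and 2 of these (33.3%, against 3.83%) an unadjusted p under 0.05. Under the 17 alternatives 4 to 5 had a lower mean and 1 to 3 an unadjusted p under 0.05. Their summed TPM was 1177, 1493, 1403, 1411 and 1379 TPM in the WT embryos and 1085, 716, 1139 and 851 TPM in the KO embryos. All 4 KO sums were below the lowest WT sum, a description to which no test was applied. *GPX1* and *GPX4* held most of that sum. *GPX1*, the main cytosolic peroxidase, stood at 445, 652, 829.6, 786 and 675 TPM in the WT embryos and 619, 373, 448 and 491 TPM in the KO embryos. WT embryo 1 lay as low as the KO embryos, and KO embryo 2 was the lowest of all (log2 fold change −0.48, SE 0.235, adjusted p = 0.847). The unadjusted limma p of *GPX1* was under 0.05 without KO embryo 1 or WT embryo 1 and with quantile normalization or array weights. Without WT embryo 1 its groups did not overlap and its log2 fold change was −0.62, and without KO embryo 2 it was −0.36. *GPX4*, which reduces lipid peroxides in membranes and protects against ferroptosis, stood at 638, 772, 509, 551 and 641 TPM in the WT embryos and 414, 262, 620.0 and 259 TPM in the KO embryos. KO embryos 1, 2 and 4 lay below every WT embryo, and KO embryo 3 lay inside the WT range. The KO mean was 0.625 of the WT mean (log2 fold change −0.76, SE 0.274, adjusted p = 0.727, 95% interval −1.36 to −0.16 before adjustment).

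*GPX8*, a peroxidase of the endoplasmic reticulum, was a low transcript, at 4.24, 1.34, 3.89, 3.77 and 1.94 TPM in the WT embryos and 2.08, 1.42, 0 and 0 TPM in the KO embryos. It was listed at 0 in KO embryos 3 and 4, while KO embryos 1 and 2 lay inside the WT range (log2 fold change −1.22, SE 0.407, adjusted p = 0.671). Its fold change depends on the pseudocount and was −2.75 with 0.1 in place of 1 TPM. *GPX7*, the other peroxidase of that compartment, was at 0 in KO embryo 1 and reached 8.62 TPM in KO embryo 3, the highest of the 9. Its log2 fold change turned from 0.27 to −0.27 without KO embryo 3, −0.024 without WT embryo 2 and −0.049 with a pseudocount of 0.1 TPM. Without KO embryo 1 that fold change was 0.82. Plasma-type *GPX3* stood at 1.06 to 2.11 TPM in WT and 0.420 to 1.98 TPM in KO. *CAT*, which breaks down hydrogen peroxide in peroxisomes, spanned 56.9 to 85.3 TPM in WT and 48.1 to 96.5 TPM in KO. With all embryos it had one of the smallest differences of the 38 (log2 fold change 0.056, SE 0.248). That fold change was −0.0048 and −0.11 without KO embryos 2 and 4, 0.22 without KO embryo 1 and 0.16 with array weights.

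**Figure D3:**
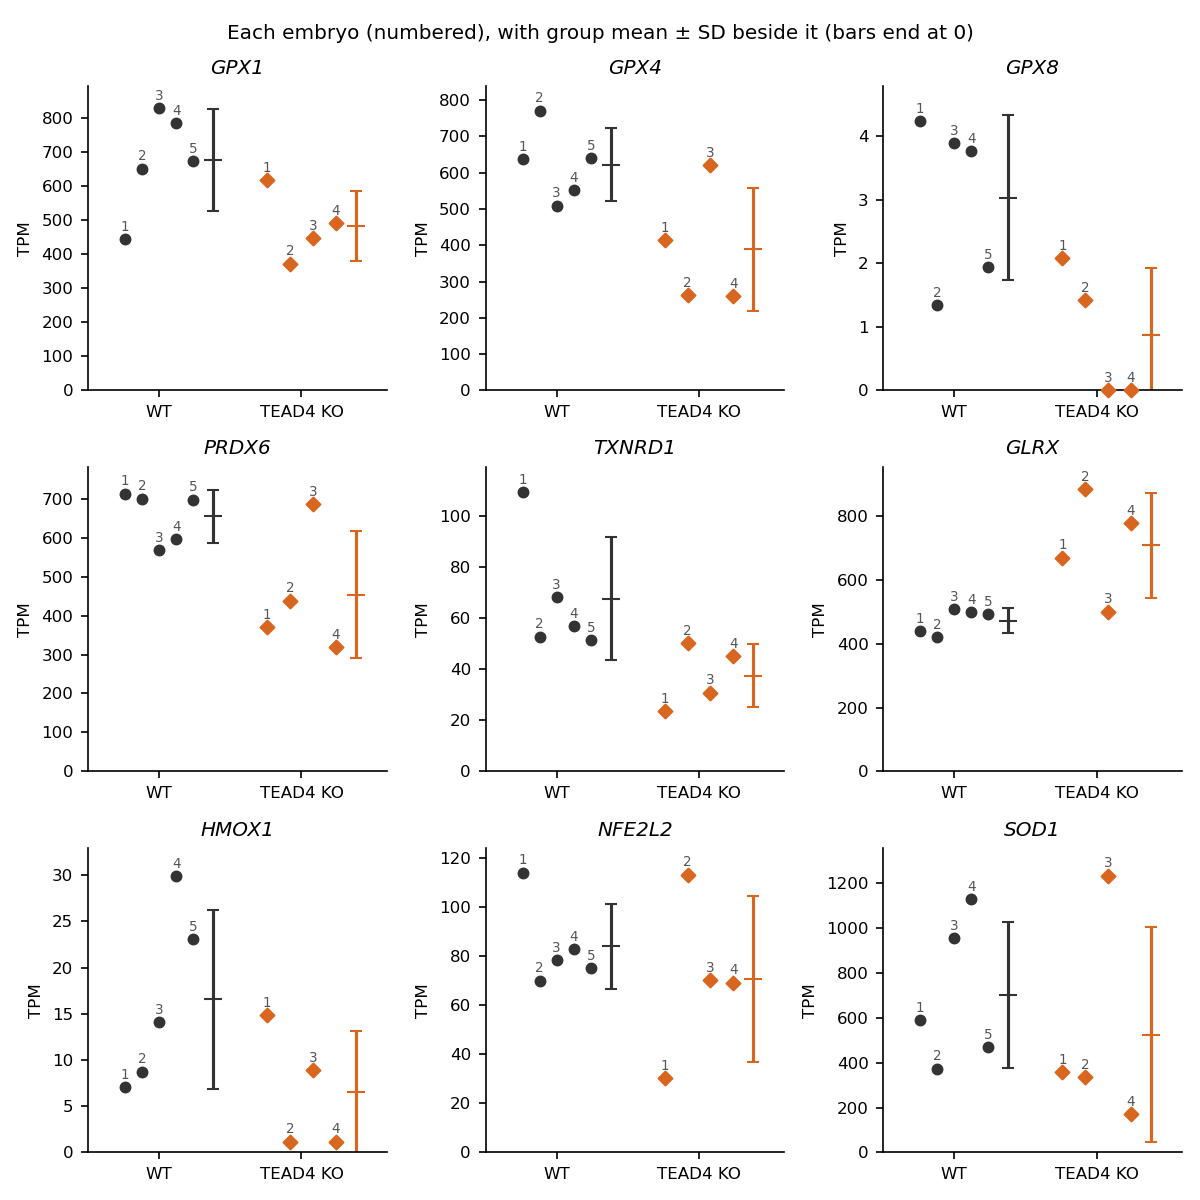
TPM (vertical axes, from 0) of 9 members in each numbered WT (circles, n = 5) and KO (diamonds, n = 4) embryo, with mean ± SD beside the points. For *GPX4* and *PRDX6* KO embryo 3 lies among the WT embryos and the other 3 below them, and for *GLRX* it lies among them while the other 3 lie above.

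Peroxiredoxins, the most abundant family, had summed levels of 5882 to 6912 TPM in WT and 5568 to 7030.0 TPM in KO. *PRDX2*, a cytosolic member, stood at 1863, 2869, 3293, 2669.7 and 2440.3 TPM in the WT embryos and 2362, 2132, 2018 and 2676 TPM in the KO embryos. All 4 KO values lay inside the WT range (log2 fold change −0.18, SE 0.212, adjusted p = 0.976), and the log2 fold change was −0.29 without WT embryo 1, −0.089 without WT embryo 3 and −0.12 without KO embryo 3. *PRDX1*, also cytosolic, spanned 1860.2 to 2993 TPM in WT and 2148 to 3442 TPM in KO. *PRDX6*, which repairs oxidised phospholipids and uses glutathione, stood at 713, 699.6, 567, 596 and 697 TPM in the WT embryos and 370.2, 438, 687 and 318 TPM in the KO embryos. WT embryos were tightly grouped, KO embryos 1, 2 and 4 were below all of them, and KO embryo 3 was inside their range. The KO mean was 0.692 of the WT mean (log2 fold change −0.59, SE 0.236, adjusted p = 0.783, 95% interval −1.10 to −0.071 before adjustment). In mitochondria, *PRDX3* stood at 83.8, 79.3, 65.8, 92.1 and 83.6 TPM in the WT embryos and 105, 133, 35.1 and 150.3 TPM in the KO embryos. There 3 KO embryos exceeded the WT range and KO embryo 3 fell short of it (log2 fold change 0.20, SE 0.370, adjusted p = 0.982). Without KO embryo 3, *PRDX3* was among the members with an unadjusted p under 0.05 and without overlap, at a log2 fold change of 0.66, and without KO embryo 4 it was −0.027. *PRDX4* of the endoplasmic reticulum spanned 119 to 302 TPM in WT and 148 to 322 TPM in KO, and *PRDX5* 296 to 595 TPM in WT and 278 to 600.4 TPM in KO. *SRXN1*, the sulfiredoxin that reactivates overoxidised peroxiredoxins, stood at 0.892, 4.16, 2.32, 1.71 and 4.39 TPM in the WT embryos and 2.09, 4.54, 2.34 and 0.595 TPM in the KO embryos. Its groups overlapped widely, with KO embryo 4 the lowest and KO embryo 2 the highest (log2 fold change −0.15, SE 0.420, adjusted p = 0.987), and the log2 fold change ran from −0.43 without KO embryo 2 to 0.17 without KO embryo 4, with −0.36, −0.0019, −0.23 and 0.014 without WT embryos 1, 2, 4 and 5 and −0.55 with array weights.

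In the thioredoxin system the carrier was abundant in both genotypes and its cytosolic reductase was the 1 member whose groups did not overlap. *TXNRD1*, which reduces thioredoxin with NADPH, stood at 109, 52.6, 68.0, 56.8 and 51.3 TPM in the WT embryos and 23.5, 50.2, 30.8 and 45.0 TPM in the KO embryos. WT embryo 1 was far above the rest, and the gap between groups was narrow, from 50.2 TPM in KO embryo 2 to 51.3 TPM in WT embryo 5. The KO mean was 0.553 of the WT mean (log2 fold change −0.84, SE 0.304, adjusted p = 0.727). Its exact permutation p, two-sided and unadjusted, was 0.0159, the smallest that divisions of 9 embryos into 5 and 4 allow. That value follows from the lack of overlap and adds nothing to it. *TXN* itself stood at 3719.5, 2434, 2485, 4943 and 3245 TPM in the WT embryos and 3251, 2837, 3397 and 1766 TPM in the KO embryos. WT embryo 4 was the highest and KO embryo 4 the lowest, and the other KO embryos lay inside the WT range (log2 fold change −0.25, SE 0.276, adjusted p = 0.971). Without the KO embryo 4 value the log2 fold change of *TXN* was −0.043, and without that of WT embryo 4 it was −0.100. The mitochondrial partners were less even in KO. *TXN2* spanned 239 to 393 TPM in WT and 107 to 598 TPM in KO. KO embryo 3 was the lowest and KO embryo 4 the highest of the 9 for *TXN2*. Its log2 fold change of −0.23 was 0.20 without KO embryo 3 and −0.63 without KO embryo 4. *TXNRD2* spanned 5.12 to 12.6 TPM in WT and 6.40 to 24.3 TPM in KO. *TXNIP*, which binds and inhibits thioredoxin, spanned 2.49 to 9.01 TPM in WT and 4.90 to 11.9 TPM in KO.

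*GLRX* was the 1 member with a higher mean in KO at an unadjusted p under 0.05. This cytosolic glutaredoxin, which removes glutathione from protein thiols, stood at 439, 421, 509, 499.5 and 492 TPM in the WT embryos and 670.0, 885, 501 and 778 TPM in the KO embryos. WT values were tightly grouped, KO embryos 1, 2 and 4 were above all of them and KO embryo 3 was inside their range. The means were 472 ± 39.5 TPM in WT (SD, n = 5) and 709 ± 164 TPM in KO (SD, n = 4) (log2 fold change 0.56, SE 0.206, adjusted p = 0.743, 95% interval 0.11 to 1.01 before adjustment). *GLRX2* of mitochondria spanned 149 to 463 TPM in WT and 174 to 266 TPM in KO. Its log2 fold change of −0.15 was 0.063 without WT embryo 4 and −0.34 without WT embryo 1. *GLRX3*, a carrier of iron-sulfur clusters, spanned 246 to 390.2 TPM in WT and 227 to 335 TPM in KO. *GSR*, the glutathione reductase, was narrow in WT and wide in KO, at 64.2 to 81.4 TPM in WT and 49.0 to 162 TPM in KO. Its log2 fold change of 0.21 was −0.10 without KO embryo 2 and 0.46 without KO embryo 3.

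Genes of glutathione synthesis did not move in 1 direction. *GCLC*, the catalytic subunit of glutamate-cysteine ligase, stood at 14.8, 19.8, 23.8, 26.5 and 21.5 TPM in the WT embryos and 10.4, 17.9, 13.4 and 24.0 TPM in the KO embryos. KO embryos 1 and 3 were below every WT embryo and the other 2 inside the WT range (log2 fold change −0.39, SE 0.298, adjusted p = 0.935), and the log2 fold change was −0.21 without KO embryo 1. *GCLM*, the modifier subunit of the same enzyme, stood at 54.2, 26.3, 31.7, 30.7 and 33.8 TPM in the WT embryos and 21.4, 82.4, 73.7 and 31.8 TPM in the KO embryos. KO embryos 2 and 3 were above every WT embryo, KO embryo 1 was below them and KO embryo 4 was inside their range (log2 fold change 0.39, SE 0.395, adjusted p = 0.968). Leaving out KO embryo 1, 2 or 3 gave log2 fold changes of 0.74, 0.11 and 0.16. *GSS*, which adds glycine in the last step, spanned 6.74 to 42.6 TPM in WT and 16.5 to 26.1 TPM in KO, with the highest value in WT embryo 1. Its log2 fold change of 0.43 was 0.81 without WT embryo 1, where its unadjusted limma p was under 0.05, and 0.19 without WT embryo 3. *SLC7A11* was above 0 only in WT embryos 2, 3 and 5, at 0.357, 0.347 and 0.195 TPM.

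All 4 glutathione transferases had a lower mean in KO, and none had an unadjusted p under 0.05 in limma. *GSTP1*, the most abundant, stood at 787, 787, 607, 594 and 983 TPM in the WT embryos and 778, 467, 770.4 and 468 TPM in the KO embryos. KO embryos 1 and 3 were inside the WT range and KO embryos 2 and 4 below it (log2 fold change −0.30, SE 0.244, adjusted p = 0.950), with log2 fold changes of −0.17, −0.17 and −0.19 without KO embryo 2, KO embryo 4 and WT embryo 5 and −0.49 with array weights. RefSeq also gives *GSTP1* as a synonym of a second locus, so its value may be shared with a near copy and is uncertain. *MGST1*, a membrane-bound transferase, stood at 43.4, 16.6, 37.1, 40.5 and 32.4 TPM in the WT embryos and 16.5, 30.0, 10.4 and 24.1 TPM in the KO embryos. KO embryo 3 was the lowest, and KO embryo 1 lay just under WT embryo 2 (log2 fold change −0.75, SE 0.363, adjusted p = 0.847, and −0.48 without KO embryo 3). The unadjusted p of *MGST1* was under 0.05 with quantile normalization and without KO embryo 2 or WT embryo 2. Without WT embryo 2 its log2 fold change was −0.98 and its groups did not overlap. *GSTO1* spanned 13.3 to 35.7 TPM in WT and 5.59 to 26.0 TPM in KO, and *MGST3* 35.2 to 244 TPM in WT and 48.9 to 147 TPM in KO, with WT embryo 4 highest for both. The log2 fold change of *MGST3*, −0.14 with all embryos, changed direction without KO embryo 2 or 4 or WT embryo 3 or 4, up to 0.23 without WT embryo 4, and with array weights (0.19). It was −0.46 without WT embryo 2. The log2 fold change of *GSTO1* went from −0.44 to −0.063 without KO embryo 4 and to −0.74 without KO embryo 1.

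On the NRF2 axis neither regulator had an unadjusted p under 0.05 in limma. Of the 5 members of that family 1, *HMOX1*, did (20%, against 3.83% of all genes lower in KO). *NFE2L2* stood at 114, 69.9, 78.2, 82.8 and 75.0 TPM in the WT embryos and 30.2, 113, 70.0 and 69.1 TPM in the KO embryos. KO embryo 1 was far below the rest, KO embryo 2 near the highest WT embryo, and the other 2 KO embryos at the low end of WT (log2 fold change −0.37, SE 0.334, adjusted p = 0.956). The difference rested on single embryos, with a log2 fold change of −0.015 without KO embryo 1 and −0.64 without KO embryo 2. *KEAP1*, the adaptor that targets NRF2 for degradation, stood at 35.7, 23.6, 29.6, 25.5 and 27.7 TPM in the WT embryos and 22.7, 33.0, 33.7 and 25.6 TPM in the KO embryos. Its KO values lay in or just below the WT range (log2 fold change 0.010, SE 0.238, adjusted p = 0.998), and the sign of its difference changed without any 1 of KO embryos 2 and 3 and WT embryos 2 and 4, down to −0.070 without KO embryo 3. *HMOX1*, the inducible haem oxygenase, stood at 7.08, 8.75, 14.1, 29.9 and 23.1 TPM in the WT embryos and 14.8, 1.17, 8.88 and 1.16 TPM in the KO embryos. KO embryos 2 and 4 were near 1 TPM and below every WT embryo, and KO embryos 1 and 3 were inside the WT range. The KO mean was 0.393 of the WT mean (log2 fold change −1.57, SE 0.645, adjusted p = 0.785, 95% interval −2.98 to −0.17 before adjustment).

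*HMOX2*, the constitutive haem oxygenase, stood at 104, 66.2, 102, 85.2 and 78.9 TPM in the WT embryos and 40.4, 54.2, 146 and 23.5 TPM in the KO embryos. As for *SOD1*, KO embryo 3 exceeded the WT range and the other 3 KO embryos fell short of it (log2 fold change −0.70, SE 0.421, adjusted p = 0.897). The log2 fold change was −1.19 without KO embryo 3 and −0.32 without KO embryo 4. In the fit without KO embryo 3, *HMOX2* was among the members with an unadjusted p under 0.05 and without overlap. *NQO1*, a quinone reductase and a textbook NRF2 target, stood at 8.31, 5.50, 5.04, 8.70 and 11.0 TPM in the WT embryos and 8.36, 6.59, 9.92 and 1.18 TPM in the KO embryos. Only KO embryo 4 lay outside the WT range, and without it the log2 fold change was 0.13 (log2 fold change −0.39, SE 0.468, adjusted p = 0.975 with all embryos, and −0.65 without KO embryo 3). As textbook NRF2 targets, 7 members were listed here (*NQO1*, *HMOX1*, *TXNRD1*, *GCLM*, *GCLC*, *SRXN1* and *SLC7A11*), and 6 of them were tested. Of these 5 (83.3%, against 55.8% of all genes) had a lower mean in KO and *GCLM* a higher one. The lower ones numbered 3 of 6 without KO embryo 4, where *NQO1* and *SRXN1* changed direction, and 4 of 6 without WT embryo 5, where *SRXN1* did. That list was chosen by hand and need not hold every NRF2 target among the 40. Outside it members went both ways, with log2 fold changes of 0.16 for *PRDX1* and 0.21 for *GSR*. *TXN*, *GSTP1* and *MGST1*, also outside it, had −0.25, −0.30 and −0.75.

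Both methionine sulfoxide reductases, which repair oxidised methionine in proteins, had a lower mean in KO. *MSRA* stood at 29.3, 14.5, 17.1, 24.0 and 28.0 TPM in the WT embryos and 11.8, 12.4, 27.9 and 4.67 TPM in the KO embryos. KO embryo 3 was inside the WT range and the other 3 below it (log2 fold change −0.81, SE 0.426, adjusted p = 0.878, and −0.42 without KO embryo 4). Without KO embryo 3 the log2 fold change was −1.20, and *MSRA* was among the members with an unadjusted p under 0.05 and without overlap. *MSRB1* stood at 71.2, 160.4, 86.4, 67.2 and 109.7 TPM in the WT embryos and 81.0, 102, 58.5 and 72.2 TPM in the KO embryos. WT embryo 2 was the highest by far, 3 of the KO values lay among the other WT values and KO embryo 3 was the lowest (log2 fold change −0.29, SE 0.287, adjusted p = 0.969). Leaving out WT embryo 2 gave a log2 fold change of −0.094, leaving out KO embryo 3 gave −0.16 and array weights gave −0.50.

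**Figure D4:**
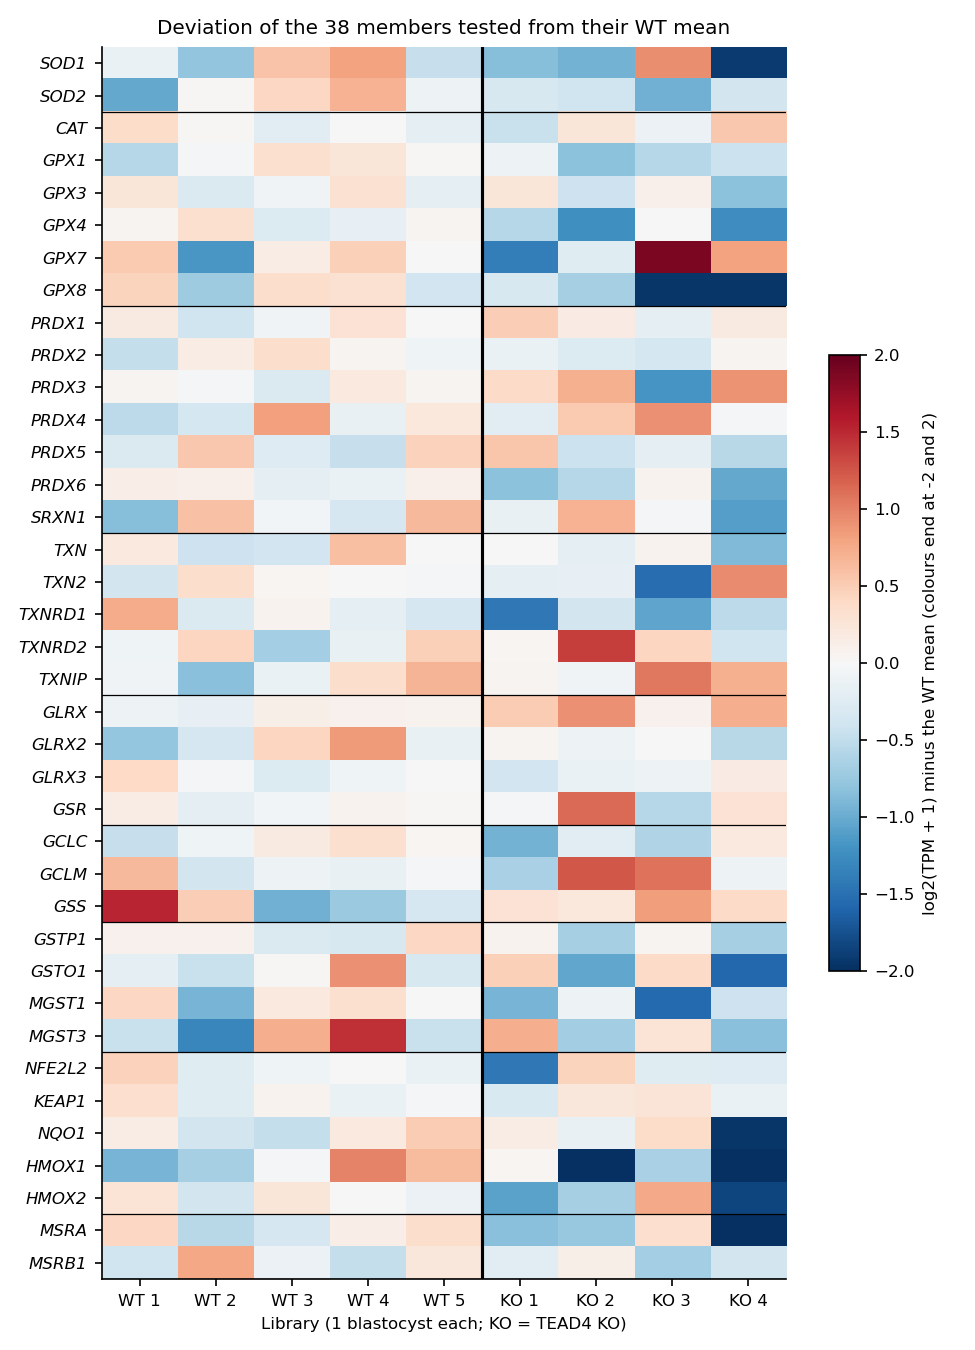
Log2(TPM + 1) of each of the 38 members tested (vertical) in each embryo (horizontal) minus its WT mean, blue for lower and red for higher. KO embryo 4 alone is the lowest of the 9 for 12 members, and KO embryo 3 differs from the other KO embryos for *SOD1*, *PRDX3*, *PRDX6*, *GPX4*, *HMOX2* and *MSRA*.

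By place in the cell, 5 members were grouped here as mitochondrial (*SOD2*, *PRDX3*, *TXN2*, *TXNRD2* and *GLRX2*), and *PRDX5* was not included. These 5 had a median log2 fold change of −0.15, with 3 lower and 2 higher in KO. They summed to 518 to 1002 TPM in WT and 452 to 990.4 TPM in KO. The lower ones numbered 2 without KO embryo 3 or WT embryo 4 and 4 without KO embryo 4, and the median ran from −0.32 to 0.20 over the 17 alternatives. The 3 members of the endoplasmic reticulum (*PRDX4*, *GPX7* and *GPX8*) had 1 lower and 2 higher means, or 2 lower and 1 higher without KO embryo 3 or WT embryo 2 and with a pseudocount of 0.1 TPM, and *PRDX4* held 97.8% of their sum. Of the secreted pair, *GPX3* alone was tested. Family sums overlapped between genotypes for 8 of the 9 families, the exception being catalase with the glutathione peroxidases. The coefficient of variation was larger in KO than in WT for 26 of the 38 members (68.4%), against 71.6% of all genes.

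**Figure D5:**
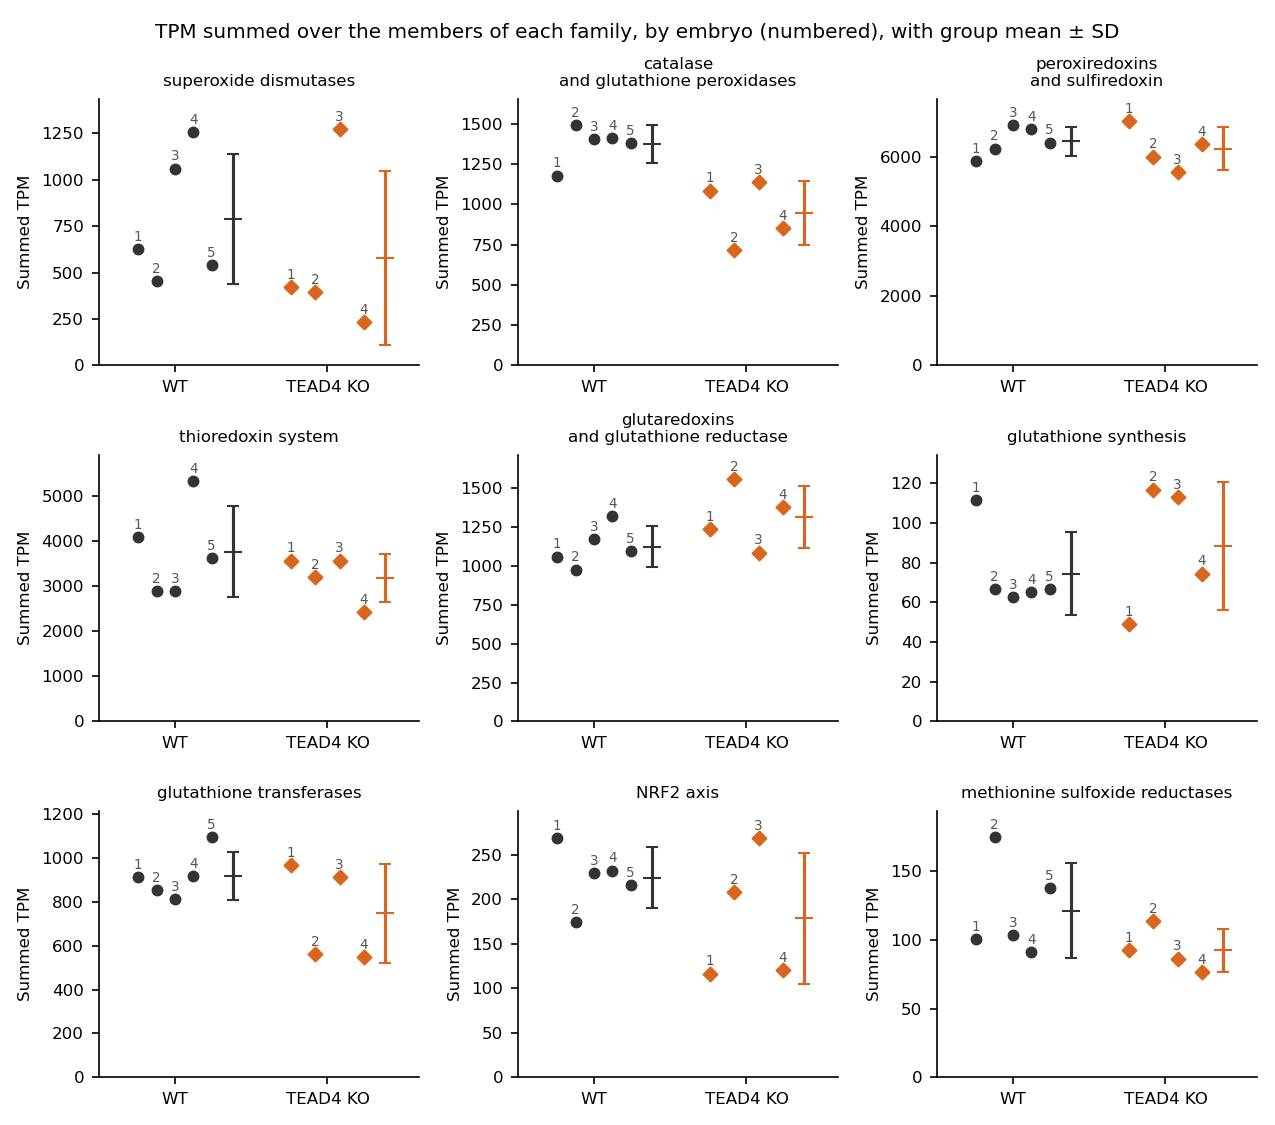
TPM summed over the members of each of the 9 families (vertical axes, from 0) in each numbered WT (circles) and KO (diamonds) embryo, with mean ± SD. For catalase and the glutathione peroxidases the KO embryos span 716 to 1139 TPM, all below the WT embryos at 1177 to 1493 TPM, and the other families overlap.

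Of 97 further genes of redox metabolism, 93 were found in the table and 86 tested, and the other 4 were not analysed here. In limma 0 of the 86 had an adjusted p under 0.05, 5 (5.81%, against 3.83% of all genes) had a lower and 1 (1.16%, against 2.07%) a higher mean in KO at an unadjusted p under 0.05, and 1 (1.16%, against 1.23%) lay wholly below WT. Leaving out 1 embryo gave 2 to 8 lower and 0 to 2 higher. Their median log2 fold change was −0.11. Among 11 genes of NADPH supply, which feeds both reductase systems, 10 (90.9%, against 55.8% of all genes) had a lower mean log2(TPM + 1) in KO, or 6 without KO embryo 3. However, the summed TPM of the 11, of which *TALDO1* held 50.1%, was 1259 to 1717 TPM in WT and 1222 to 1954 TPM in KO, with means of 1449 and 1536 TPM. The 2 at an unadjusted p under 0.05 (18.2%, against 3.83%) were *IDH2*, a mitochondrial NADPH source, at 23.5 to 54.2 TPM in WT and 17.6 to 28.9 TPM in KO (log2 fold change −0.74, SE 0.308, adjusted p = 0.797), and *ME1*, at 0.750 to 3.78 TPM in WT and 0 to 2.76 TPM in KO (log2 fold change −0.95, SE 0.430, adjusted p = 0.836). No gene of that group was lower at an unadjusted p under 0.05 without KO embryo 1 or WT embryo 3, 4 or 5. Without KO embryo 1, 1 of the 11 was higher at that level, against 3.52% of all genes. *TALDO1*, the most abundant there, was the exception with a higher mean in KO, at 584 to 749.8 TPM in WT and 676 to 1025 TPM in KO.

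Among NRF2 partners and regulators, of which 9 were tested, *BACH1*, a repressor that competes with NRF2, stood at 1.07 to 2.80 TPM in WT and 0.164 to 1.19 TPM in KO (log2 fold change −0.64, SE 0.274, adjusted p = 0.816). No gene of these 9 was lower at an unadjusted p under 0.05 without KO embryo 1 or 3 or WT embryo 1 or 4, or with array weights. *RBX1* was the most abundant, at 181 to 360.3 TPM in WT and 181 to 533 TPM in KO. Of 16 further thioredoxin-fold and repair genes, *MSRB3*, another methionine sulfoxide reductase, spanned 4.67 to 45.0 TPM in WT and 1.73 to 11.1 TPM in KO (log2 fold change −1.96, SE 0.622, adjusted p = 0.624), and *TXNRD3*, the third thioredoxin reductase gene, 1.43 to 2.47 TPM in WT and 0.213 to 1.64 TPM in KO (log2 fold change −0.65, SE 0.266, adjusted p = 0.785). Both had their highest values in WT. The most abundant there was *PDIA3*, at 190.0 to 1133 TPM in WT and 387 to 1078 TPM in KO. Of 19 tested glutathione enzymes outside the 40, 13 (68.4%, against 55.8% of all genes) had a lower mean in KO and 6 a higher one. *GSTK1* was among the higher, at 18.6 to 30.4 TPM in WT and 24.6 to 59.7 TPM in KO (log2 fold change 0.70, SE 0.312, adjusted p = 0.836). No gene of these 19 was higher at an unadjusted p under 0.05 without KO embryo 2 or 3 or WT embryo 1, 2, 4 or 5. *GGT7* did not overlap, at the low levels of 0.235 to 0.983 TPM in WT and 0.0588 to 0.215 TPM in KO, and *GGCT* was the most abundant, at 112 to 153 TPM in WT and 58.0 to 149 TPM in KO. None of 22 other antioxidant genes, led by the ferritin heavy chain *FTH1* at 7662 to 11263 TPM in WT and 6718 to 9238 TPM in KO, and none of 9 tested oxidant producers, led by *RAC2* at 2.15 to 18.2 TPM in WT and 1.46 to 14.9 TPM in KO, had an unadjusted p under 0.05 in limma.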

How the data were processed

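The authors sequenced single snap-frozen D8 blastocysts and deposited TPM values, for which the submitters' processing notes name FastQC, fastp and kallisto. Versions, annotation and genome build are not given in the sources used here, so no coordinates are given. The labels and the paper's methods describe different library kits, and which applies was not settled. The 9 columns, each summing to 1000000 TPM, were assigned to WT or KO by name. Which column is which labelled sample within a genotype is not stated. TPM keeps no read number, so DESeq2, which the authors used and which needs counts, was not run.

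Linear models were fitted with lmFit and eBayes (trend) of limma 3.58.1 under R 4.3.3 to log2(TPM + 1) of genes whose median exceeded 0.1 TPM, where the pseudocount understates changes of low genes, with Benjamini-Hochberg adjustment over all 14599 genes. The test was also run on simulated data, and the outcome of that run is not given here. Exact permutation tests (scipy 1.17.1, Python 3.11.15) used the difference in mean log2(TPM + 1), two-sided. Members and lists were chosen with earlier results of these data known. Members described in full were those with an unadjusted p under 0.05 or without overlap, the highest WT mean and the smallest p of each family, and *NFE2L2*, *KEAP1* and 7 textbook NRF2 targets. *PRDX3* and the other members given by range fall outside that rule, *PRDX1* among them although its mean over all 9 embryos was the highest of its family. The log2 fold changes are KO minus WT, and no p was adjusted over the 40 members alone. Settings tried as alternatives were a pseudocount of 0.1 TPM, a median above 1 TPM or no filter, median-of-ratios or quantile scaling, limma without trend, robust or with array weights, and leaving out each embryo.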

Additional observations from a re-analysis of the deposited data

Results flagged for a closer look

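*SOD2* in KO embryo 3 stood apart from its group, at 40.3 TPM against 60.1 to 63.6 TPM in the other 3 KO embryos, whose values were close together. It was the only such value among 76 groups of values examined (38 members in 2 genotypes, Dixon's ratio at the 95% level), fewer than the 1 in 20 that chance gives. WT embryo 1 was lower still, at 38.4 TPM.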

How the results depend on the processing

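Under all 17 alternatives 0 members had an adjusted p under 0.05 in limma, while 3 to 10 had an unadjusted p under 0.05, against 6 as reported. Across the table, where 3 genes passed, 8 passed with a pseudocount of 0.1 TPM, 8 with a median above 1 TPM, 5 with median-of-ratios size factors, 6 with quantile normalization, 5 without trend, 6 with robust eBayes, 4 with no filter, 4 with array weights and 0 to 10 when 1 embryo was left out. Median-of-ratios scaling gave 3 members at an unadjusted p under 0.05 and 2 that did not overlap, and quantile normalization gave 2 that did not overlap, *GLRX* joining *TXNRD1* in both, beside 1.17% of all genes below and 1.15% above WT with the former and 1.00% and 1.51% with the latter. With quantile normalization 3.23% of all genes were lower and 3.65% higher in KO at an unadjusted p under 0.05, and 6 members were lower and 1 higher.

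Leaving out 1 embryo gave 3 to 10 members at an unadjusted p under 0.05, 1 to 8 that did not overlap, and a median log2 fold change of the members from −0.28 to −0.084. Over all genes the same fits gave 2.54% to 6.41% lower and 1.35% to 3.52% higher at an unadjusted p under 0.05, 1.34% to 4.12% wholly below and 1.00% to 2.45% wholly above WT, and a median of −0.12 to 0.038. Of the 22 members with a fitted fold change described in full, 19 kept their direction under all 17 alternatives, although sizes moved, as from −0.64 to −0.015 for *NFE2L2*, −0.36 to −0.043 for *TXN* and 0.11 to 0.74 for *GCLM* when 1 embryo was left out. The other 3 changed direction only when an embryo was left out, with ranges of −0.070 to 0.11 for *KEAP1*, −0.43 to 0.17 for *SRXN1* and −0.65 to 0.13 for *NQO1*. Of the 16 members given by range, 9 kept their direction under all 17 alternatives and 7 did not (*CAT*, *GPX7*, *PRDX3*, *TXN2*, *GLRX2*, *GSR* and *MGST3*). Array weights moved the log2 fold change to −0.59 for *NQO1* and −0.24 for *NFE2L2*. The cause of these movements was not tested. The depth of each column is unknown, so the precision of low values such as those of *GPX8* and *SRXN1* is unknown as well. No paired analysis was possible because each library is a separate embryo and the column numbers are not described as pairs.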

Other observations

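Selenoproteins, which carry selenocysteine in their active site, were grouped after the values had been seen, so the following is a description only. The 6 among the members (*GPX1*, *GPX3*, *GPX4*, *TXNRD1*, *TXNRD2* and *MSRB1*) summed to 1273, 1649.5, 1499.7, 1471 and 1491 TPM in the WT embryos and 1148, 812, 1171 and 875 TPM in the KO embryos. All 4 KO sums were below the lowest WT sum, and *GPX1* held 46.7% of the sum. *GPX1*, *GPX3* and *GPX4* are also in the sum of catalase and the glutathione peroxidases, so the order of these sums is not a separate observation. Of the 6, 5 (83.3%, against 55.8% of all genes) had a lower mean in KO and *TXNRD2* a higher one, with a median log2 fold change of −0.38. The 6 further selenoprotein genes (*SELENOW*, *SELENOT*, *SELENOK*, *SELENOF*, *SELENOS* and *TXNRD3*) summed to 1133, 928, 1169, 955 and 927 TPM in the WT embryos and 989, 968, 893 and 1287 TPM in the KO embryos. Their groups overlapped, 3 had a lower and 3 a higher mean in KO, and their median log2 fold change was −0.0051.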
